A study of Mus musculus with 6 samples.

Results

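Erythroid and megakaryocyte marker genes, 42 in all, were followed in the mouse B-cell line 230-238. The list was drawn up by symbol as 20 genes of the red cell lineage and 22 of megakaryocytes and platelets. Of these, 37 were measured by a probe set that the platform annotation gives to that gene alone, among 19937 genes with such a probe set. They comprised 19 erythroid and 18 megakaryocyte genes, each with a single probe set. Ahsp, Gp1ba, Gp6 and Selp had no entry in the annotation used here, and Gp1bb shares its probe set with Septin5, so these 5 genes were not analysed here.

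The series holds 6 arrays of this line, 3 from cells infected with a plasmid for green fluorescent protein (GFP) and 3 from cells whose plasmid carried FOG1 as well as GFP. FOG1 is the product of Zfpm1. Both groups were grown in RPMI1640 for 3 days after infection, sorted for GFP and grown for another 4 days, so the control cells were also infected and sorted. The labels name no clone, and they leave unsaid whether each biological replicate had its own infection. The p-values therefore cover only the spread among these samples, which may be technical.

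FOG1 is a zinc finger protein that binds GATA1 and GATA2 rather than DNA, and through them activates or represses genes. It is required for red cells and megakaryocytes to form, and these lineages share GATA1, a common progenitor and much of their regulation. Red cell genes encode globins, heme enzymes, iron uptake proteins and the membrane skeleton. Megakaryocyte genes encode the adhesion receptors, granule proteins and signalling receptors of platelets. The comparison asks whether genes of these lineages differ when B cells carry added FOG1.

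Because GATA factors are the partners through which FOG1 reaches genes, promoters of the members were searched for GATA words. RefSeq promoter windows of build GRCm38.p6, from 250 bases before to 50 after each annotated start, were found for 30 members, 12 erythroid and 18 megakaryocyte. The words searched, on both strands, were AGATAA with its variant AGATAG, and TGATAA with its variant TGATAG. Matches that overlap one another, or a match to another motif, were all kept. At least 1 GATA word lay in 11 of the 12 erythroid windows, in 8 of the 18 megakaryocyte windows and in 33.0% of all 27025 genes in the table. A KLF word, CCNCNCCC, lay in 14 of the 30 windows against 51.9% of all genes, and an ETS word, GGAAGT, in 10 of the 30 against 26.5%. By lineage, the KLF word lay in 6 of the 12 erythroid and 8 of the 18 megakaryocyte windows. The ETS word lay in 2 of the 12 and 8 of the 18. A match is a run of letters and not a measured binding site.

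The 250 bases before the start are shown for 6 members, 5′ to 3′ on the strand of the gene, with matches to the GATA words or their reverse complements in capitals. Alas2, at chrX:150547167-150547416 on the plus strand, encodes the first enzyme of erythroid heme synthesis, and Epor, at chr9:21963577-21963826 on the minus strand, the erythropoietin receptor. Kel, at chr6:41704326-41704575 on the minus strand, encodes the Kell blood group protein, and Gp5, at chr16:30310782-30311031 on the minus strand, a subunit of the platelet receptor for von Willebrand factor. These 4 carry the words and had signals below the array median. Itga2b, at chr11:102469884-102470133 on the minus strand, and Tfrc, at chr16:32608646-32608895 on the plus strand for the first of its 2 annotated starts, had the smallest p values among members with a window, and none of the words is in these windows.
Alas2: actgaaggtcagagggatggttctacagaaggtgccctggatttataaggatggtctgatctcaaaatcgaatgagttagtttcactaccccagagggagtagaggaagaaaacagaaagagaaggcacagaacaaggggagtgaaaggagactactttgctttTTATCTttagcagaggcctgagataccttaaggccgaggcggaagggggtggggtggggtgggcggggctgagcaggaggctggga
Epor: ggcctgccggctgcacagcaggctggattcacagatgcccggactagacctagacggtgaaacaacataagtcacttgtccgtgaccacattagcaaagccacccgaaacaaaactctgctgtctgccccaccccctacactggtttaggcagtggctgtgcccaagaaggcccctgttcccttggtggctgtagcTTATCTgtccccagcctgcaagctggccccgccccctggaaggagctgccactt
Kel: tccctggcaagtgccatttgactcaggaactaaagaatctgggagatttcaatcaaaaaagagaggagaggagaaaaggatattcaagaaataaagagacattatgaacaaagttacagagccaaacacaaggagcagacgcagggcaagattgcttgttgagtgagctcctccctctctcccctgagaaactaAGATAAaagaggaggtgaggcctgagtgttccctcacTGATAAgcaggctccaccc
Gp5: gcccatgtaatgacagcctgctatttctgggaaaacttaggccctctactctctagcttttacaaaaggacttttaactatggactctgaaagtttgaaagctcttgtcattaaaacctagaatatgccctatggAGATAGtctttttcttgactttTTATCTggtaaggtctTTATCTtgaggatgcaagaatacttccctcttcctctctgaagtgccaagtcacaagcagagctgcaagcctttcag
Itga2b: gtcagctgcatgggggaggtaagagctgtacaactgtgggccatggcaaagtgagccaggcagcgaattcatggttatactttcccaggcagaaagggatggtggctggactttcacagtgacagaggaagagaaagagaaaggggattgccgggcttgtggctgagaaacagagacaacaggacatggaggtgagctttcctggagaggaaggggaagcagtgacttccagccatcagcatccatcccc
Tfrc: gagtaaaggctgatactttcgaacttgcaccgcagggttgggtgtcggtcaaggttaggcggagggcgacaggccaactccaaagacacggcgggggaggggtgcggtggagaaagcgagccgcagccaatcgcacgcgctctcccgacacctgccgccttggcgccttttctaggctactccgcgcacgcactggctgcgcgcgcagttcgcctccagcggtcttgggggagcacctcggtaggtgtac

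The matches lay at different distances from the start. The Epor match began 54 bases before it, the Alas2 match 86 bases and the Rhag match 31 bases before it. Gp5 and Gp1ba had 3 matches each. The matches of Pf4 and Sptb lay within the first 50 bases after the start. The 16 measured members with a GATA word had a median log2 change of 0.01 with FOG1 (range -0.10 to 0.11), and the 10 without one in the window also had 0.01 (range -0.24 to 0.22). Of those with the word, 1 of 16 lay above the array median on all 3 GFP-alone arrays, and of those without, 6 of 10 did. The word also lay in 11 of the 12 erythroid windows but in 8 of the 18 megakaryocyte windows. Presence of the word, lineage and signal level therefore cannot be told apart here, and no conclusion about GATA words is drawn from the medians.

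**Figure D1:**
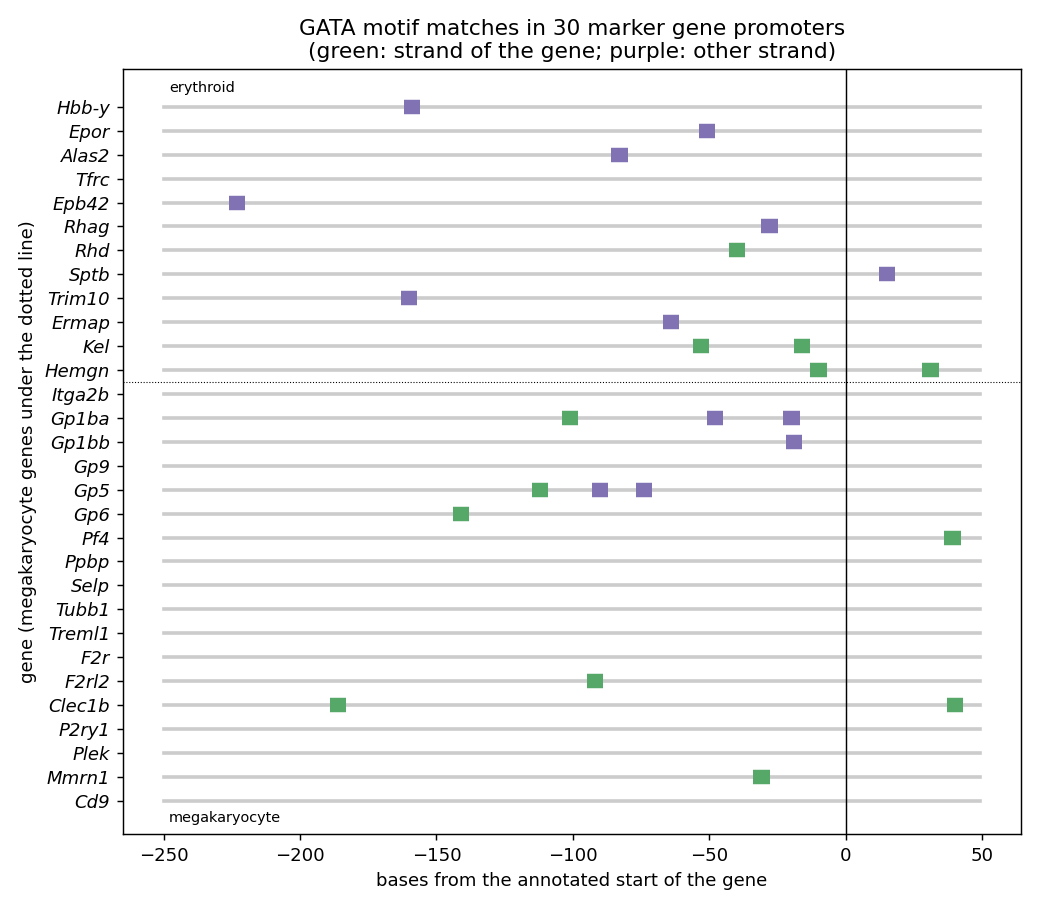
Positions of GATA words in the promoters of 30 marker genes, with bases from the annotated start on the horizontal axis and 1 line per gene; green marks the strand of the gene and purple the other strand. Matches stand on 11 of the 12 erythroid lines above the dotted line and on 8 of the 18 megakaryocyte lines below it.

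The values are log2 signals as the authors deposited them, and a probe set's level depends on its probes as well as on the RNA. Zfpm1 read 9.41, 9.49 and 9.43 without and 10.21, 10.16 and 10.17 with the FOG1 plasmid, so no array went against its label (log2 change 0.74, SE 0.045; limma adjusted p = 0.0038). Of 15 measured B-lineage markers, such as Cd79a and Cd79b, 14 lay above the median signal of all probe sets on every GFP-alone array. None of 8 myeloid or 8 mast cell and basophil markers did, nor any of 7 T and NK cell markers, while 4 of 5 stromal markers did. In a principal component analysis FOG1 replicate 1 lay at 1.15 on the first component, nearer to the GFP-alone arrays (-16.1 to -11.4) than FOG1 replicates 2 and 3 (17.0 and 24.3) did.

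Most of the lineage genes gave low signals in cells without added FOG1. On every GFP-alone array, 13 of 37 members lay above the array median, against 48.2% of all probe sets. These were 5 erythroid genes (Tfrc, Car2, Fech, Ermap and Slc4a1) and 8 megakaryocyte genes (Thbs1, Plek, F2r, Cd9, Itgb3, Treml1, Tubb1 and Vwf). Olfactory and vomeronasal receptors, which blood cells are not known to use, gave a reference level from 1208 probe sets. Their 95th percentile was 6.87 to 6.92 on the GFP-alone arrays, and 15 members exceeded it on all 3, the same 13 with Itga2b and Gp9, against 49.9% of all probe sets. The other 22 exceeded it on none of the 3, and with FOG1 the only such value was that of Epor on FOG1 replicate 3. Part of such signals can be background, which makes a log2 change there understate a change in RNA.

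**Figure D2:**
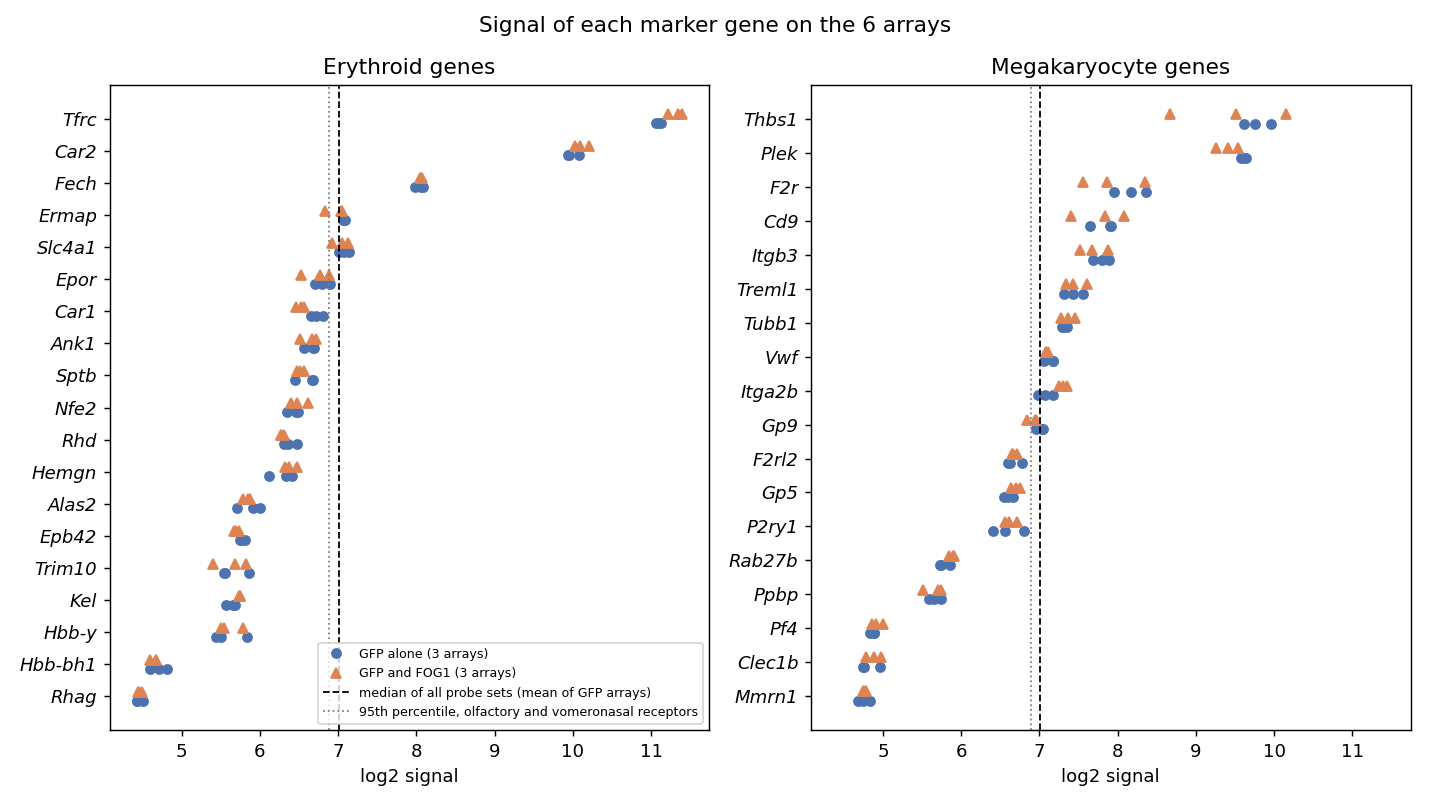
Log2 signals of 19 erythroid and 18 megakaryocyte genes on the 6 arrays, with GFP-alone arrays as circles and FOG1 arrays as triangles; the dashed line is the median of all probe sets and the dotted line the 95th percentile of olfactory and vomeronasal receptors, both as means of the GFP-alone arrays. Tfrc, Car2, Thbs1 and Plek stand far to the right, and most erythroid genes lie left of both lines.

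None of the 37 members passed the threshold, an adjusted p under 0.05 over all 34760 probe sets, where 0.224% of all probe sets did (limma with Benjamini-Hochberg; 36 higher and 42 lower with FOG1). The smallest adjusted p among members was 0.25. An unadjusted p under 0.05 was found for 4 members, Tfrc, Itga2b, Car1 and Plek, or 10.8% against 12.5% of all probe sets. Groups did not overlap for 8 members (21.6%), against 19.6% of all probe sets. Of these, 3 were higher and 5 lower with FOG1, where 9.13% and 10.5% of all probe sets were. These shares lay near the background. The median log2 change was -0.01 over the 19 erythroid and 0.01 over the 18 megakaryocyte genes, and -0.01 over all probe sets. In size, the change was under 0.1 log2 units for 25 of the 37. The 95% intervals excluded a change of 1.5-fold in either direction in signal for 35 members, all but F2r and Thbs1. The 35 include all 22 members below the receptor reference on the GFP-alone arrays, where signal can understate a change in RNA.

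**Figure D3:**
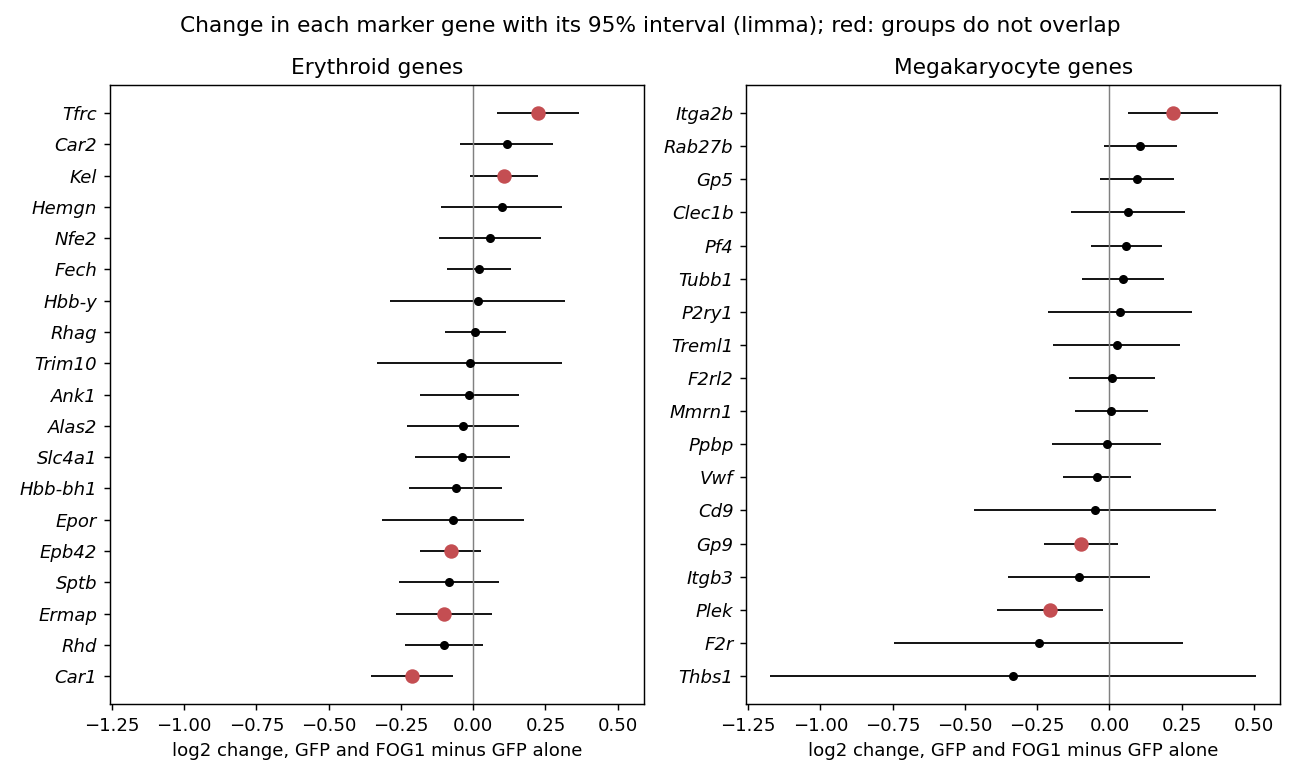
Log2 change in signal with FOG1 for each marker gene, with points for the limma estimate and bars for its 95% interval; red points mark the 8 genes whose 3 FOG1 arrays all lay on 1 side of the 3 GFP-alone arrays. Most intervals are narrow and span 0, and those of Thbs1 and F2r are the widest.

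The 2 embryonic beta-like globins of the list were at low signals in both groups. Hbb-bh1, an embryonic beta-like globin, read 4.59, 4.71 and 4.81 in GFP-alone cells and 4.67, 4.67 and 4.60 in FOG1 cells. Hbb-y, the other embryonic beta-like globin, read 5.51, 5.44 and 5.84 without and 5.54, 5.50 and 5.79 with FOG1. The groups overlapped for both, and their log2 changes were -0.06 (SE 0.067) and 0.02 (SE 0.126). These 2 genes lie in 1 cluster of related globins, so their probes may share signal. Hba-x, an embryonic alpha-like globin outside the list, read 7.35, 7.15 and 7.08 without and 7.24, 7.23 and 7.07 with FOG1. Its signals lay above the array median on every array, and its groups overlapped (log2 change -0.01).

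The iron uptake gene Tfrc, which encodes the transferrin receptor used by all dividing cells as well as by red cell precursors, had the smallest p of all members. It read 11.09, 11.06 and 11.13 in GFP-alone cells and 11.22, 11.34 and 11.39 in FOG1 cells. All FOG1 values lay above all GFP-alone values, and the difference was 0.22 log2 units (95% interval 0.08 to 0.37; limma adjusted p = 0.25), or 1.17-fold. Epor read 6.71 to 6.89 without and 6.52 to 6.89 with FOG1, with a log2 change of -0.07 (95% interval -0.32 to 0.18).

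Heme synthesis was represented at its first and last steps. Fech, the ferrochelatase that inserts iron into the ring and is used in every cell, read 7.98, 8.06 and 8.08 without FOG1 and 8.08, 8.05 and 8.05 with it. Alas2, the erythroid form of the first enzyme, read 5.87 ± 0.15 without and 5.84 ± 0.04 with FOG1 (SD, n = 3 each). Neither separated the groups, and the log2 changes were 0.02 and -0.04. Among heme enzymes outside the list, Ppox differed by 0.31, Cpox by 0.15, Alad by 0.13, Urod by 0.07 and Uros by -0.08. Their limma adjusted p lay between 0.21 (Ppox) and 0.68 (Urod). All FOG1 values lay above all GFP-alone values for Ppox, Cpox and Alad, as for 9.13% of all probe sets. The groups overlapped for Urod and Uros.

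The carbonic anhydrases, which speed the exchange of carbon dioxide and bicarbonate, had differences of opposite sign. Car2 read 9.96, 10.08 and 9.93 in GFP-alone cells and 10.03, 10.09 and 10.20 in FOG1 cells, and its groups overlapped. Car1 read 6.81, 6.72 and 6.65 without and 6.46, 6.53 and 6.56 with FOG1, with every FOG1 value lower. The log2 changes were 0.12 (SE 0.067; limma adjusted p = 0.52) for Car2 and -0.21 (SE 0.059; limma adjusted p = 0.27) for Car1. The Car1 values all lay below the receptor reference.

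Of the 8 genes of the red cell membrane and its skeleton, 6 had negative and 2 positive log2 changes, between -0.10 and 0.11, with a median of -0.06. Slc4a1, the anion exchanger band 3, read 7.07, 7.13 and 7.01 without and 7.05, 6.92 and 7.13 with FOG1, with overlapping groups. Ermap, an erythroid membrane protein that carries a blood group, read 7.08, 7.06 and 7.09 without and 7.04, 7.05 and 6.83 with FOG1. All its FOG1 values were lower, and FOG1 replicate 3 was lowest (log2 change -0.10; limma adjusted p = 0.58).

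Epb42, which encodes the membrane skeleton protein 4.2, read 5.81, 5.74 and 5.77 without and 5.70, 5.67 and 5.73 with FOG1, with all FOG1 values lower by a small step (log2 change -0.08; limma adjusted p = 0.51). Kel read 5.56, 5.69 and 5.65 without and 5.73, 5.74 and 5.75 with FOG1, with all FOG1 values higher (log2 change 0.11; limma adjusted p = 0.43). Rhd, an Rh blood group gene, read 6.30, 6.47 and 6.36 without and 6.31, 6.26 and 6.26 with FOG1, and the groups overlapped. Ank1 (ankyrin), Sptb (beta spectrin) and Rhag (an Rh-associated ammonium channel) had log2 changes of -0.01, -0.08 and 0.01. All 6 of these genes had signals below the receptor reference.

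The regulators were also below that reference on the GFP-alone arrays. Nfe2, the haematopoietic subunit of a transcription factor used in red cells and platelets, read 6.35 to 6.49 without and 6.39 to 6.62 with FOG1 (log2 change 0.06). Hemgn, a nuclear protein of erythroid cells, had a log2 change of 0.10 and Trim10, a tripartite motif protein of erythroid cells, one of -0.01. The limma adjusted p of these 3 lay between 0.66 and 0.98.

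Among megakaryocyte adhesion receptors, Itga2b, the alpha chain of the platelet fibrinogen receptor, had the smallest p of the megakaryocyte members. It read 6.98, 7.18 and 7.07 in GFP-alone cells and 7.25, 7.29 and 7.35 in FOG1 cells. All FOG1 values lay above all GFP-alone values, by 0.22 log2 units on average (95% interval 0.07 to 0.38; limma adjusted p = 0.29), or 1.17-fold. Itgb3, the beta chain that pairs with it, read 7.68, 7.80 and 7.89 without and 7.87, 7.67 and 7.52 with FOG1. Its groups overlapped and its difference was -0.10 (SE 0.102), so the estimates for the paired chains had opposite signs, and neither passed.

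Of the receptor complex for von Willebrand factor, Gp9 and Gp5 were measured. Gp9 read 7.05, 7.03 and 6.96 without and 6.95, 6.84 and 6.96 with FOG1, with FOG1 replicate 3 just under GFP-alone replicate 3 (log2 change -0.10; limma adjusted p = 0.48). Gp5 read 6.66, 6.60 and 6.54 without and 6.64, 6.70 and 6.75 with FOG1, and its groups overlapped (log2 change 0.10; limma adjusted p = 0.50).

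Plek and Rab27b act in platelet activation and granule release. Plek, the protein kinase C substrate pleckstrin, is found in many blood cells and read 9.57, 9.63 and 9.61 without and 9.25, 9.42 and 9.53 with FOG1. All FOG1 values were lower, and the difference was -0.21 (95% interval -0.39 to -0.02; limma adjusted p = 0.36). Rab27b, a small GTPase of granule transport, read 5.72, 5.85 and 5.74 without and 5.84, 5.90 and 5.89 with FOG1, with groups that overlapped narrowly (log2 change 0.11; limma adjusted p = 0.46). Tubb1, the beta tubulin of the platelet ring, read 7.29, 7.36 and 7.30 without and 7.36, 7.28 and 7.45 with FOG1, with no separation.

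The platelet granule genes other than Thbs1 had log2 changes near 0. The platelet chemokine gene Pf4 read 4.87 ± 0.03 without and 4.92 ± 0.07 with FOG1, and the related Ppbp 5.66 ± 0.08 and 5.65 ± 0.13 (SD, n = 3 each). Vwf, von Willebrand factor, read 7.17, 7.17 and 7.06 without and 7.10, 7.08 and 7.09 with FOG1. Mmrn1, which encodes multimerin, had a log2 change of 0.01. The changes of Pf4, Ppbp and Vwf were 0.06, -0.01 and -0.04, and the groups overlapped for all 4.

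The groups also overlapped for the signalling receptors. Treml1, a receptor of platelet granule membranes, read 7.32, 7.42 and 7.56 without and 7.43, 7.34 and 7.61 with FOG1. F2rl2, a thrombin receptor related to F2r, had a log2 change of 0.01, P2ry1, a receptor for ADP, one of 0.04 and Clec1b, the podoplanin receptor, one of 0.06. The signals of F2rl2, P2ry1 and Clec1b lay below the receptor reference on all 6 arrays.

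Thbs1, F2r and Cd9 varied more between the FOG1 arrays than other members, with SDs of 0.75, 0.40 and 0.34 log2 units at percentiles 99.9, 97.8 and 96.5 of all probe sets. They and Itgb3 were grouped after their values were seen. Thbs1, the adhesive glycoprotein thrombospondin 1, read 9.61, 9.96 and 9.76 without and 10.15, 9.51 and 8.66 with FOG1. F2r, the main thrombin receptor of many cells, read 7.96, 8.17 and 8.37 without and 8.35, 7.86 and 7.55 with FOG1. Cd9, a tetraspanin of platelets and many other cells, read 7.65, 7.91 and 7.91 without and 8.08, 7.84 and 7.40 with FOG1.

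For these 3 and Itgb3, FOG1 replicate 3 was the lowest of the 6 arrays and FOG1 replicate 1 the highest or second highest. The groups overlapped, and the log2 changes were -0.33 for Thbs1 (95% interval -1.17 to 0.51), -0.24 for F2r (-0.74 to 0.25) and -0.05 for Cd9 (-0.47 to 0.37). Without FOG1 replicate 3 they became 0.06, -0.06 and 0.14, and that of Itgb3 became -0.02, with the sign turned for Thbs1 and Cd9. Without FOG1 replicate 1 they were -0.69 for Thbs1, -0.46 for F2r, -0.20 for Cd9 and -0.20 for Itgb3. Leaving out either array thus moved all 4 values by over 1.5 times.

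Stromal markers, which the line's label does not call for, moved with these genes across the arrays. The collagen genes Col1a1, Col1a2 and Col3a1 and the growth factor receptor genes Pdgfra and Pdgfrb were measured, and all 5 were highest on FOG1 replicate 1 and lowest on FOG1 replicate 3. That pattern was seen in 3.35% of all probe sets and in 2 of the 37 members, Thbs1 and Cd9. The summed signal of the 5 ranged from 1981 to 2274 on a linear scale on the GFP-alone arrays and from 1427 to 2637 on the FOG1 arrays. Their mean log2 signal had a difference of -0.55 from the GFP-alone mean on FOG1 replicate 3, where Thbs1 had one of -1.11. Whether stromal cells contributed to the signals of these members was not tested, and fewer cells of a type and less RNA per cell cannot be told apart in such samples.

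**Figure D4:**
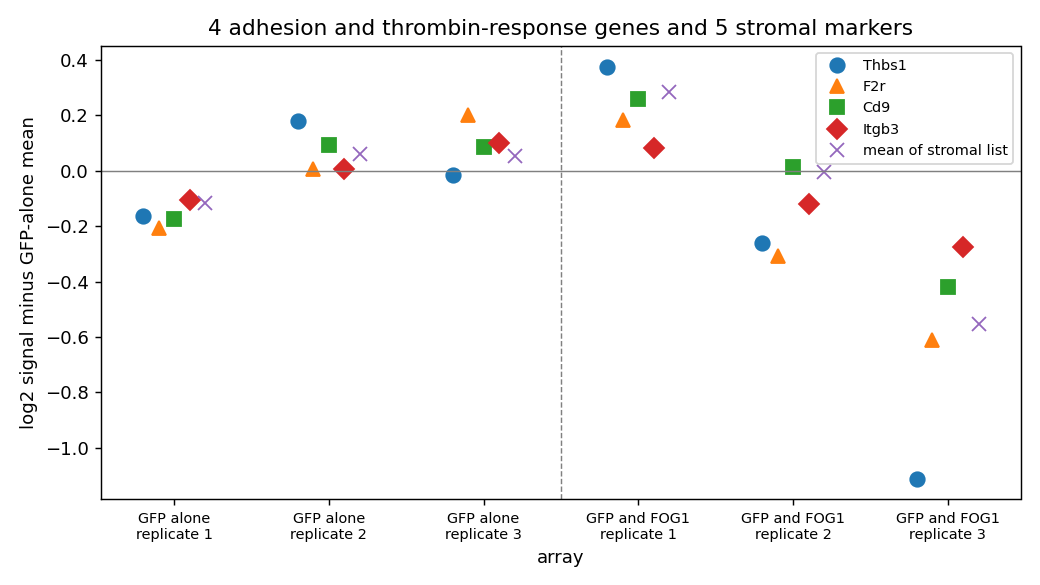
Log2 signal of Thbs1, F2r, Cd9 and Itgb3 and the mean of 5 stromal markers on each of the 6 arrays, each minus its own GFP-alone mean; points are single arrays. All stand lowest on FOG1 replicate 3, where Thbs1 reaches -1.11 and the stromal mean -0.55.

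Other genes of the same lineages were read from the same fit, and Rgs18 alone passed among them. Of 40 further erythroid genes 30 were measured and none passed over all probe sets, with a median log2 change of -0.02. An unadjusted limma p under 0.05 was found for 4 that were higher and 2 that were lower, together 20.0% against 12.5% of all probe sets. Groups did not overlap for 12 of the 30 (40.0%), 7 higher and 5 lower, against 19.6% of all probe sets. This list held brighter genes than the erythroid members did, and whether that bears on these shares was not tested. On every GFP-alone array 23 of its 30 genes lay above the array median, against 5 of the 19 erythroid members. Ppox differed by 0.31, Slc14a1 (a urea transporter) by 0.24, Xk (a partner of the Kell protein) by 0.21 and Gata1 by -0.20, with limma adjusted p of 0.21, 0.22, 0.32 and 0.32. Gata1 read 6.70, 6.87 and 6.74 without and 6.65, 6.52 and 6.54 with FOG1, below the receptor reference on every array. Klf1, an activator of adult globin genes, read 5.72 ± 0.069 without FOG1 (SD, n = 3) and differed by -0.04. Of 40 further megakaryocyte genes 36 were measured, with a median of -0.02, and 1 passed, which was higher. In that list 2 had an unadjusted limma p under 0.05 (5.56%), and groups did not overlap for 8 (22.2%), both counts including Rgs18.

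The gene that passed, Rgs18, restrains G protein signals in platelets. Its rise was known when the list was made, so the 1 call was known in advance. It read 5.73, 5.94 and 6.15 without and 8.81, 9.07 and 9.12 with FOG1 (log2 change 3.06, SE 0.127; limma adjusted p = 0.00065). The next by p were P2rx1, a receptor for ATP on platelets (-0.24), Stx11, a membrane fusion protein of granule release (-0.10), and Pear1, a platelet endothelial aggregation receptor (-0.14), with limma adjusted p of 0.22, 0.40 and 0.40. The transcription factor genes Fli1 and Runx1, used in megakaryocytes and in B cells, had log2 changes of 0.08 and -0.02, and Gata2 one of -0.10. Gata2 read 6.82, 6.90 and 6.81 without and 6.83, 6.66 and 6.74 with FOG1, below the array median on every array.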

How the data were processed

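RNA of 6 samples of the 230-238 line was amplified and hybridised to an Affymetrix mouse gene array. The authors deposited 1 log2 signal per array for each of 34760 probe sets, a scale inferred from their range (3.12 to 14.07). The submitters' processing notes name affy with no version, and neither background correction nor between-array normalization is given in the sources used here, so a shift shared by most genes could be hidden. The number of arrays limits the precision. Groups and replicate numbers came from the sample titles.

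Probe sets were named through the platform annotation (21640 with 1 symbol). Of a gene's 1-symbol probe sets, that of highest mean stood for it. The comparison used lmFit and eBayes of limma 3.58.1 (R 4.3.3) with no block and no filter, with Benjamini-Hochberg adjustment over all probe sets and a threshold of 0.05. On simulated data with 34760 probe sets in each of 10 runs, the fit recovered 54.6% of changes of 1.41-fold, 87.6% of 2-fold and 97.6% of 4-fold. Promoters are RefSeq sequences and carry no value of these arrays. Values on all arrays are given for the 6 members of each lineage with the smallest p (the sixth megakaryocyte gene is F2r), for those above the array median on every GFP-alone array and for the globins. The members and lists were chosen with earlier results of these data known. Plots were made in Python 3.11.15 (matplotlib 3.10.9).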

Additional observations from a re-analysis of the deposited data

How the results depend on the processing

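No member passed the threshold under any of 14 alternatives, which were quantile normalization, median centring, leaving out dim probe sets, 1-symbol probe sets only, the replicate block, a variance trend, array weights, each array left out in turn, and averaging a gene's probe sets. The last keeps the members' values, since each has 1 probe set, and tests fewer features. Of 495 member values under them, 37 changed sign, in 16 members. No sign could change without dim probe sets, with 1-symbol probe sets only, with the replicate block or with a variance trend. Like averaging, these settings keep the log2 change of each member they hold, so only its interval and p-value can move. The median of the megakaryocyte members was -0.0496 without dim probe sets, where 9 of 18 genes were left. Without 1 array the median of the erythroid members ranged from -0.0367 to 0.0269. The count of all probe sets past the threshold was 78, and it was 17 to 38 without 1 array and 9 with the replicate block. Deviations of arrays with the same number correlated at -0.07, 0.01 and -0.04, so the numbers were treated as names only. The smallest adjusted p of a member with the block was 0.37 (limma), and 0.14 to 0.52 over the other alternatives. The count of members above the reference on every GFP-alone array was 13 against the array median, 10 against the median of 1-symbol probe sets, 15 against the receptor genes and 13 to 14 without 1 array. For the 22 members below the receptor reference on the GFP-alone arrays, changes could be understated. No pseudocount applies to log2 values.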
